A study of Mus musculus with 2 samples.

Results

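The nuclear-encoded genes of the respiratory chain and ATP synthase were described in nuclear RNA of mouse macrophages. The members were the genes with a protein-coding transcript whose symbol begins with Nduf, Uqcr, Atp5, Cox4, Cox5, Cox6, Cox7 or Cox8, pseudogene symbols left out. This gave 90 genes with 89 symbols, of 22028 protein-coding genes and 55536 gene rows in all. They comprised 7 core subunits, 29 accessory subunits and 8 assembly factors of complex I, 8 genes of complex III, 20 of complex IV and 18 of ATP synthase. The rule itself uses no measured value, but it was set with earlier results of these data known.

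Complex I takes electrons from NADH, complex III passes them from ubiquinol to cytochrome c, and complex IV hands them to oxygen; complexes I, III and IV pump protons across the inner mitochondrial membrane, and ATP synthase makes ATP as the protons flow back. A small set of subunits is encoded in mitochondrial DNA and made inside the organelle. All others are transcribed in the nucleus, translated in the cytoplasm and imported, so their messenger RNAs pass through the nuclear RNA measured here on their way out. Macrophages stimulated through TLR4 are known to shift energy production from the respiratory chain towards glycolysis.

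The data came from 2 ribosomal-RNA-depleted total RNA libraries of 1 group, with no untreated or otherwise treated group beside it. The cells were bone marrow-derived macrophages of the strain C57BL/6J. They received Lipid A, the TLR4-binding part of bacterial lipopolysaccharide, at 100 ng/ml for 12 h, then 12 h of washout, and then Lipid A again at 100 ng/ml for 60 min. The labels name the fraction nuclear in some fields and nucleoplasmic in another, and give no sex or age. Replicate 1 started from 1 µg of RNA and replicate 2 from 500 ng. Both carry the same donor identifier, and separate animals are not stated, so differences between them may be technical. With 1 group, no contrast between conditions and no test was possible: replicates are set side by side, and SDs rest on 2 values.

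Expected counts over annotated genes totalled 23630328 in replicate 1 and 15687634 in replicate 2. The members held 21879 and 12830 of them, or 0.0926% and 0.0818%. All 8 macrophage markers, Adgre1, Lyz2 and Csf1r among them, reached 10 TPM (a transcript level corrected for length and scaled to a fixed total per library) in both libraries. Of 6 markers each of neutrophils, lymphoid cells, stromal cells and muscle, none reached 1 TPM in both. In bulk RNA, fewer cells with a transcript and less of it per cell cannot be told apart.

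Most members were present at a modest level. A level of 1 TPM or more in both libraries was seen for 76 of 90 members, against 39.9% of all protein-coding genes. A level of 10 TPM or more was seen for 24 members, against 14.9%. None reached 100 TPM, which 1.43% of protein-coding genes did. The median member stood at 9.38 TPM in replicate 1 and 5.48 TPM in replicate 2, a mean of 7.43 ± 2.76 (SD, n = 2). Nuclear protein-coding genes that reached 1 TPM in both libraries had medians of 9.18 and 6.55 TPM, a mean of 7.87 ± 1.86 (SD, n = 2). The member medians above have no such floor. Members that reached 1 TPM in both libraries had 8.85 ± 3.93 (SD, n = 2), so the typical expressed member sat near the middle of the expressed genes. The 10 highest members together held 37.5% of the members' TPM in replicate 1 and 37.4% in replicate 2. TPM divides a fixed total among all RNA, and nuclear protein-coding genes together held 281404 TPM in replicate 1 and 188039 in replicate 2. The lower member levels in replicate 2 on this scale go with a smaller share for nuclear messenger RNA as a whole. Scaled to that share alone, 73 members reached 10 TPM in both libraries and the median was 31.3 TPM, while kallisto, a second quantifier, gave 11 members and a median of 3.90 TPM.

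ATP synthase had the highest median of the 6 sets, 19.6 TPM in replicate 1 and 11.5 in replicate 2. Atp5b, the catalytic beta subunit, was the highest of all members at 85.2 and 70.5 TPM (mean 77.8 ± 10.5, SD, n = 2; chr10:128083273-128090391, build mm10). Its gene also contains the small RNA genes Snord59a and Mir677. Atp5a1, the alpha subunit that alternates with beta in the catalytic head, followed among ATP synthase genes at 52.8 and 31.7 TPM (chr18:77773729-77782869). Atp5l, subunit g of the membrane part, stood at 31.8 and 16.1 TPM (chr9:44912557-44920742). Alpha and beta exceeded Atp5c1, the gamma subunit of the central stalk, which had 13.4 and 6.53 TPM. They also exceeded the other stalk genes Atp5d (delta), at 9.46 and 5.64 TPM, and Atp5e (epsilon), at 18.3 and 14.2 TPM. In the enzyme, several alpha and beta subunits surround a single gamma, delta and epsilon. The lowest gene with counts was Atp5s, coupling factor B, at 1.82 and 2.20 TPM. A second annotated gene with the symbol Atp5o, a long locus at chr16:91684398-91926982 that ends within the usual Atp5o gene, had 0 counts in both libraries, while the usual Atp5o, which couples the head to the peripheral stalk, had 12.6 and 7.23 TPM.

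The ring of ATP synthase through which protons flow is built from copies of 1 mature protein that 3 genes encode, with different import sequences. Atp5g3 was the highest at 27.9 and 14.0 TPM, Atp5g2 stood at 14.7 and 6.03 TPM, and Atp5g1 at 4.54 and 3.34 TPM. The order was the same within each library, although Atp5g3 in replicate 2 lay just below Atp5g2 in replicate 1. The place of Atp5g2 depended on how reads were divided with its processed pseudogene Gm10175, to which RSEM, the main quantifier, gave 0 counts in replicate 1 and kallisto 184.

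Complex IV had a median of 11.3 TPM in replicate 1 and 6.29 in replicate 2, over genes of 2 kinds. Its broadly expressed subunits included 3 of the 5 highest members. Cox4i1, the subunit that senses the ATP level of the matrix, had 63.4 and 33.5 TPM (mean 48.4 ± 21.1, SD, n = 2; chr8:120668222-120674207). Cox5a, a subunit on the matrix side, had 50.1 and 22.5 TPM (chr9:57521274-57532426). Cox7c, a small membrane subunit, had 38.2 and 34.3 TPM (chr13:86044816-86046904). Cox7a2l, which helps to join complexes III and IV into supercomplexes, had 21.9 and 15.4 TPM.

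Complex III had medians of 15.0 and 7.62 TPM, and all 8 of its genes reached 1 TPM in both libraries. Uqcrh, the hinge protein at the cytochrome c docking site, was highest at 43.0 and 19.8 TPM (chr4:116066965-116075071). Uqcrb, a small subunit near a ubiquinone site, had 15.0 and 17.7 TPM, and Uqcrq, another small subunit, 21.8 and 7.88 TPM. These 2 changed places between the libraries, so their order is not settled by the data. Uqcrfs1, the Rieske iron-sulfur protein, had 11.5 and 5.03 TPM.

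Complex I genes had lower medians. Its 7 core subunits, which carry the flavin, the iron-sulfur clusters and the ubiquinone site, had medians of 7.86 and 5.78 TPM. Ndufs1, which holds iron-sulfur clusters near the NADH end, had the highest mean, with 16.3 and 13.4 TPM (mean 14.9 ± 2.01, SD, n = 2; chr1:63143596-63176833). Ndufs3, a core subunit of the peripheral arm, had 10.6 and 5.76 TPM, below Ndufs1 in each library.

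The 29 accessory subunits, which surround and stabilise the core, had medians of 7.97 and 4.05 TPM, and each reached 1 TPM in both libraries. Ndufa3 was highest at 19.2 and 24.5 TPM (chr7:3617373-3620327), and its gene overlaps Tfpt on the other strand. Its posterior mean TPM, a second estimate in the RSEM tables, was higher, at 33.0 and 53.4. Ndufc2 had 18.2 and 9.95 TPM, and Ndufb8 16.1 and 9.34 TPM, both parts of the membrane arm. Ndufab1, the mitochondrial acyl carrier protein that also serves fatty acid synthesis, had 7.97 and 5.32 TPM. The lowest was Ndufb6 at 3.22 and 2.37 TPM.

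The 8 assembly factors, which build complex I and are not part of it, formed the lowest set, with medians of 1.495 and 1.00 TPM. Ndufaf3 had 2.84 and 2.88 TPM, Ndufaf1 2.72 and 1.93 TPM, and Ndufaf8 3.16 and 1.43 TPM. Ndufaf4, a partner of Ndufaf3, had 0.77 and 0.83 TPM, and Ndufaf5, which modifies Ndufs7, had 0.72 and 0.74 TPM. No assembly factor reached 10 TPM in either library, and only 3 of 8 reached 1 TPM in both. Every core subunit was above every assembly factor within each library.

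**Figure D1:**
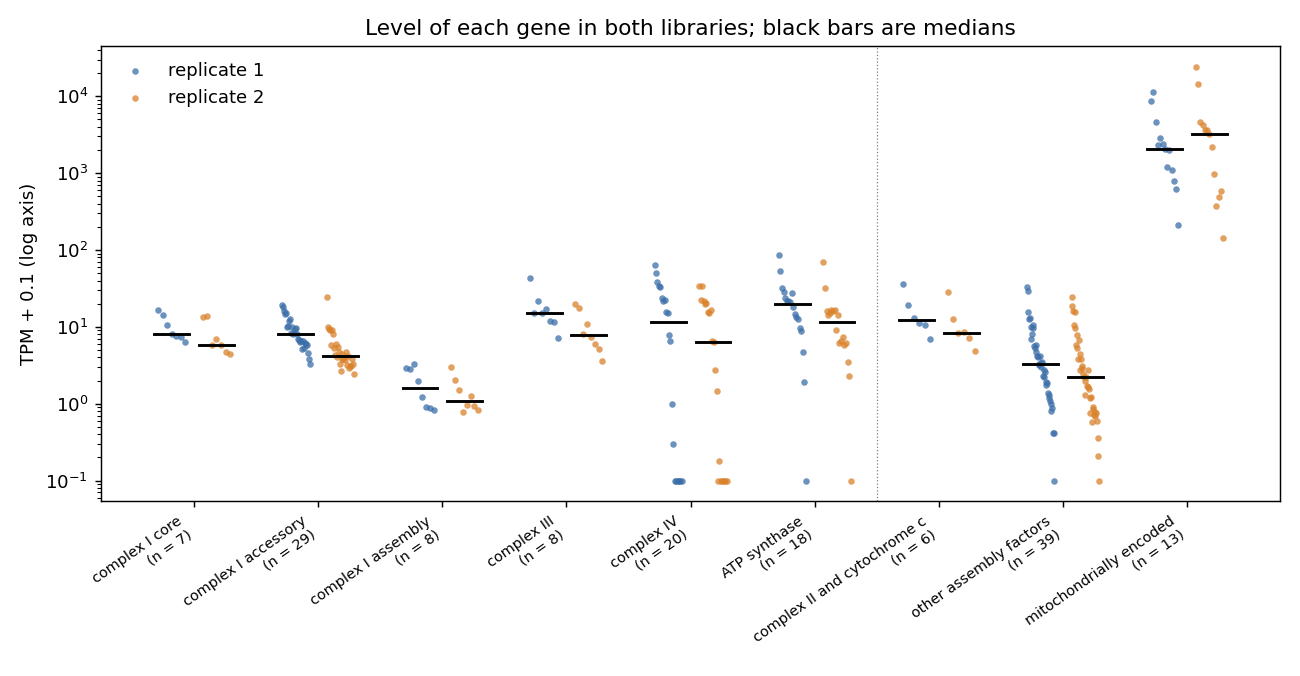
TPM + 0.1 on a log axis for each gene in replicate 1 (blue) and replicate 2 (orange), with members by complex left of the dotted line and 3 other gene lists right of it; black bars are medians. Assembly factors of complex I sat lowest among the members with a median of 1.00 TPM in replicate 2, and the 13 mitochondrially encoded genes all sat above the highest member of the same library.

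The second kind of complex IV gene was nearly absent. Several subunits have a paralogue restricted to certain tissues or induced by low oxygen, and 8 broad and restricted pairs were compared. Cox4i2, known from lung and from hypoxia, had 0 counts in replicate 1 and 1 count in replicate 2, against 822 and 406 for Cox4i1. Cox7a1, known from heart and skeletal muscle, had 1 and 0 counts, against 164 and 62 for Cox7a2. Cox6a2, also a muscle form, was the only restricted paralogue with more, at 11 and 15 counts or 0.88 and 1.38 TPM, against 23.5 and 20.3 TPM for Cox6a1. This was the closest of the pairs, 4.59 and 3.78 apart in log2(TPM + 0.1). With kallisto, Cox4i2 had 6 and 13 counts and Cox7a1 had 18 and 17, still under 1 TPM in each library.

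The other 5 restricted paralogues had 0 RSEM counts in both libraries. The testis form Cox8c had 0 counts with kallisto as well. A count of 0 allows up to 3 counts in each library, for counting error only, since these reads carry no molecular identifiers. Set against that limit, Cox8a at 22.0 and 15.1 TPM was at least 48.4-fold higher than Cox8c in replicate 1 and at least 28.4-fold higher in replicate 2. For the muscle form Cox8b kallisto gave 7 counts in replicate 1 and 1 in replicate 2, and for the testis form Cox7b2 it gave 5 and 1, while Cox7b had 6.38 and 2.62 TPM by RSEM. The testis form Cox6b2 had 0 counts with both tools, although its posterior mean TPM was 1.30 and 1.52, against 33.4 and 19.5 TPM for Cox6b1. Ndufa4, first described as a complex I subunit and now placed in complex IV, had 7.68 and 6.17 TPM. Its paralogue Ndufa4l2, known as a target of the hypoxia factor HIF1A, had 0 counts with both tools and a posterior mean TPM of 0.31 and 0.36. Hif1a itself had 16.9 and 15.0 TPM. The median difference over the pairs was 7.03 in replicate 1 and 6.64 in replicate 2, in log2(TPM + 0.1), a mean of 6.83 ± 0.28 (SD, n = 2). The size depends on the added constant, since most restricted forms were at 0: it was 3.86 with 1 TPM added and 9.82 with 0.01.

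**Figure D2:**
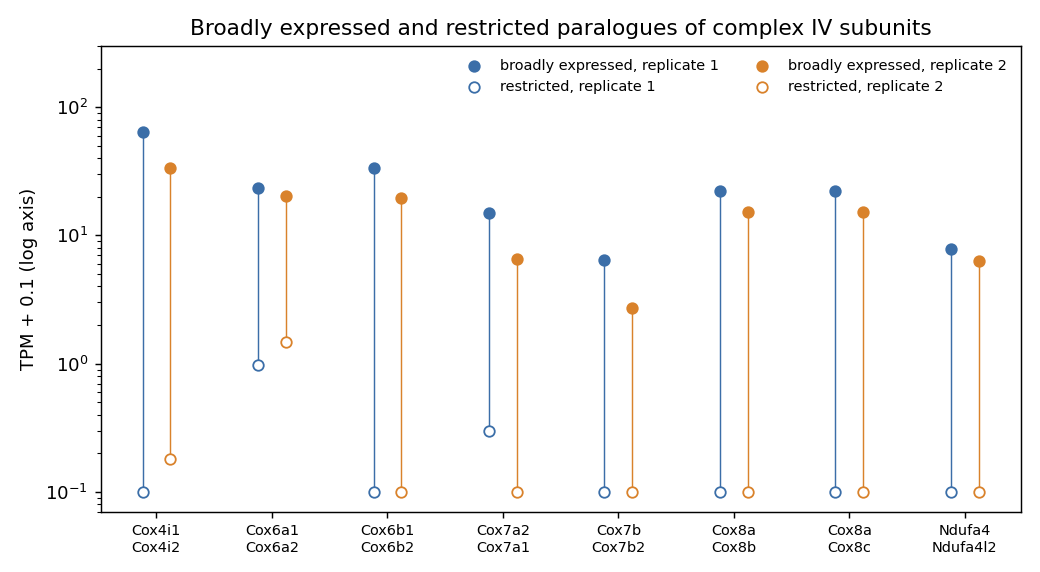
TPM + 0.1 on a log axis for 8 pairs of complex IV paralogues, broadly expressed forms filled and restricted forms open, replicate 1 in blue and replicate 2 in orange. Every broad form was above its restricted form in both libraries; the smallest gap is that of Cox6a1 and Cox6a2, and points at 0.1 stand for 0 TPM.

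Promoter sequences were looked up because the broad and restricted paralogues and the co-expressed members can be compared there. RefSeq windows of build GRCm38.p6, 250 bases before to 50 after a transcription start, were found for 73 members (78 windows). For Cox7a2 against Cox7a1 and Cox8a against Cox8b, the pairs with windows that differ most in CpG content, the first 270 bases are shown 5′ to 3′ on the gene's strand, with capitals for a match, here on the other strand, to the ETS core described next.

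Cox7a2, chr9:79759834-79760103, minus strand: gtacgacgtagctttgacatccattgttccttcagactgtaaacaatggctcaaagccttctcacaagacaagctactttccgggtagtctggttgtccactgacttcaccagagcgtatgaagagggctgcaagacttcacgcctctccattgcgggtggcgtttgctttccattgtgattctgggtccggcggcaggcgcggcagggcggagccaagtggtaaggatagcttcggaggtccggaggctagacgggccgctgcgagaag
Cox7a1, chr7:30183921-30184190, plus strand: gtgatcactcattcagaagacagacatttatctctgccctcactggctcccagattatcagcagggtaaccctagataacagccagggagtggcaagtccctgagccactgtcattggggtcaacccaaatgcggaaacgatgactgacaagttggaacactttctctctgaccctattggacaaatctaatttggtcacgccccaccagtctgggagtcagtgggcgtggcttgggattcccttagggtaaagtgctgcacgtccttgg
Cox8a, chr19:7217597-7217866, minus strand: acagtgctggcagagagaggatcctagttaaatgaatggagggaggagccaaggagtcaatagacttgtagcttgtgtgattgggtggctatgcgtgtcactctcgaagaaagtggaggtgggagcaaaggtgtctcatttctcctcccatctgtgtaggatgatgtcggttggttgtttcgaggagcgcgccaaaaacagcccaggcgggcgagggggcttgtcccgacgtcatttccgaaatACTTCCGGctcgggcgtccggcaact
Cox8b, chr7:140900427-140900696, minus strand: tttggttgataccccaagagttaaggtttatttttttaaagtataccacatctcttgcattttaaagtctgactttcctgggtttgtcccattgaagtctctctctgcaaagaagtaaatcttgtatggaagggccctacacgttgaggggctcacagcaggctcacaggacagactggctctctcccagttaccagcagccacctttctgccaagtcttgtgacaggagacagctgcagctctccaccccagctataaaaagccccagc

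The windows of Cox7a2 and Cox7a1 hold 20 and 7 CpG dinucleotides, and those of Cox8a and Cox8b hold 19 and 2. The window of Cox6b1 holds 17 and that of Cox6b2 holds 10. The 3 pairs share this direction, while Cox7b has 5 and Cox7b2 has 10, so the difference did not hold for every pair. The median over all member windows was 19.5, against 7 over all 32851 windows and 21 over the windows of nuclear protein-coding genes that reached 1 TPM in both libraries. On this measure the members resembled other expressed genes.

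Respiratory chain genes are known targets of NRF1, of the ETS factor GABPA (also called NRF2) and of YY1. The 8-base cores GCATGCGC for NRF1, CCGGAAGT for ETS factors and AAGATGGC for YY1 were searched on both strands. The NRF1 core was in 14.1% of member windows, against 2.71% of all windows and 5.68% of the windows of expressed genes. The YY1 core was also in 14.1%, against 2.75% and 5.06%. The ETS core was in 6.41%, against 3.89% and 9.42%, so this core was less frequent in member windows than in those of expressed genes. In all, 26 of 78 windows (33.3%) held at least 1 of the 3 cores, against 18.7% of the windows of expressed genes, and 1 member, Uqcr11, held more than 1. A match describes letters in a window and not a bound site, and no test was made. Examples with the match in capitals are the following, with NRF1 in Cox6a1 and Atp5k, where both strands match in an overlapping run of 10 bases, and YY1 in Atp5j (same strand) and Atp5f1 (other strand).

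Cox6a1, chr5:115348939-115349208, minus strand: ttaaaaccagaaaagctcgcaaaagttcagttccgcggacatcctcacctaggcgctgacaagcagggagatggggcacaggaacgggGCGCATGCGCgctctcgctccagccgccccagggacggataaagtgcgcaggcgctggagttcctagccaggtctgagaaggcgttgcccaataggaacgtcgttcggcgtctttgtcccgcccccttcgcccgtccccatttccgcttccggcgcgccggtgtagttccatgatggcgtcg
Atp5k, chr5:108434380-108434649, minus strand: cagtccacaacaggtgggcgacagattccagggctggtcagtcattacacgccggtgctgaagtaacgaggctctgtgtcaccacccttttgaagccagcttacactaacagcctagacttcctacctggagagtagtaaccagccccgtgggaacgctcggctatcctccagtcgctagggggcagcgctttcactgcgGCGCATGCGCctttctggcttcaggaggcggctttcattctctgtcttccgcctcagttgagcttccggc
Atp5j, chr16:84834957-84835226, minus strand: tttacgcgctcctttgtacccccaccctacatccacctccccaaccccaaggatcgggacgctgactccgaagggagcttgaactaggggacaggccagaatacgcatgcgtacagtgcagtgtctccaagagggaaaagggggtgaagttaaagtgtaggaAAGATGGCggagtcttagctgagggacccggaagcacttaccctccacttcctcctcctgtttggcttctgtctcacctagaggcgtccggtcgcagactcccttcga
Atp5f1, chr3:105959244-105959513, minus strand: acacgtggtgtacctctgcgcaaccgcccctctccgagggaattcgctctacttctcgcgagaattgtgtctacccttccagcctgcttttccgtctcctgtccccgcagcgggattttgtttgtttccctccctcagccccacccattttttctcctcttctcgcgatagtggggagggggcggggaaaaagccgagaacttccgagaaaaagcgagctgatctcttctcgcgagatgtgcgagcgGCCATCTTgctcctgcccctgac

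The 2 motifs lay at different places. The NRF1 core was wholly before the start in 7 of its 11 windows, while the YY1 core was after the start in 9 of its 11. Each window holds 250 bases before the start and 50 after, so the NRF1 count shows no preference for the side before it. Positions were not counted over the windows of other genes. In Atp5j the YY1 core was before the start, and in Atp5f1 it ran across it. The members with an NRF1 core ranged from Atp5l, at 31.8 and 16.1 TPM, to the assembly factors Ndufaf4 and Ndufaf5, under 1 TPM. None of the 5 highest members with a window (Atp5b, Cox5a, Cox7c, Uqcrh and Cox6b1) held an NRF1 core, nor did the restricted paralogues. The factors themselves were all expressed, Gabpb1 at 14.3 and 11.2 TPM, Gabpa at 7.74 and 7.02, Yy1 at 7.35 and 6.42, and Nrf1 at 6.38 and 6.45.

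**Figure D3:**
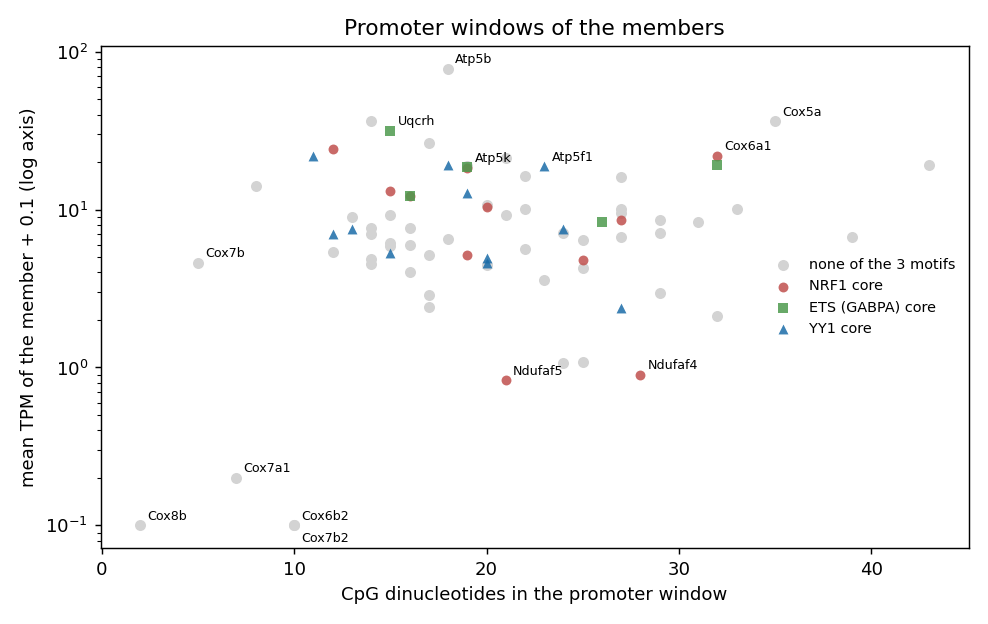
CpG dinucleotides per promoter window (x) against the mean TPM of the member + 0.1 on a log axis (y), with colours and shapes for windows that hold an NRF1, ETS or YY1 core. The 4 restricted paralogues with a window sit at the lower left with 2 to 10 CpG, and motif matches spread over the levels from under 1 TPM upward.

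Many members also start close to another gene. Counted were protein-coding genes on the other strand that start under 1000 bases upstream of the member's start, or under 100 bases downstream of it. Such a gene was annotated for 23 of 90 members (25.6%), against 7.20% of nuclear protein-coding genes and 11.8% of those that reached 1 TPM in both libraries. Examples are Ndufs1 with Eef1b2, a translation elongation factor, Uqcrh with Lrrc41, and Ndufs6 with Mrpl36, a protein of the mitochondrial ribosome. In 32 members (35.6%) an annotated gene on the opposite strand overlapped the gene body, against 36.6% of nuclear protein-coding genes and 45.2% of the expressed ones, so such overlap was not more frequent among the members. Atp5j overlaps Gabpa, itself the gene of the ETS factor searched for above. Cox6c overlaps Vps13b, which had 4824 and 3873 counts against 527 and 313 for Cox6c. The use of strand in counting is not given in the sources used here, so reads of such partners cannot be told apart from those of the member.

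Between the libraries, the members leaned lower in replicate 2. After scaling by TMM (trimmed mean of M values) factors, 81 members had a mean of 10 or more counts, and 52 of them were lower in replicate 2 and 29 higher. That is 64.2% lower, against 52.3% of nuclear protein-coding genes. The median log2 ratio of replicate 2 to replicate 1 was -0.13 over the members and -0.02 over those genes. Length moved with this difference. Members with an effective length under 1000 bases (69 genes, 60 with enough counts) had a median of -0.19 with 68.3% lower. Genes of that length among all nuclear protein-coding genes of 1 TPM or more had -0.15 with 63.5% lower. Members of 1000 bases or more had -0.02 with 52.4% lower, and other genes of that length -0.01 with 51.7%. Within a length class the members' medians thus stood close to those of other genes, but the classes were not matched. Members under 1000 bases had median effective lengths of 451 and 417 bases, against 713 and 678 for the compared genes. The members were also not limited to 1 TPM or more. The RNA input also differed between the libraries, and its part was not tested.

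By complex, the medians were -0.51 for complex III, -0.21 for accessory subunits of complex I, -0.13 for complex IV and for ATP synthase, -0.07 for core subunits and 0.03 for assembly factors. In complex III, 6 of 8 genes were lower in replicate 2. Uqcr11 had 108 and 40 counts and a log2 ratio of -0.81, and Uqcrfs1 had 349 and 136 counts and -0.75. Uqcrb went the other way, with 130 and 133 counts and a log2 ratio of 0.64 (95% counting interval 0.29 to 1.01).

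Few members were more than 2-fold apart. The count was 5 of 81 (6.17%), close to the 5.66% of nuclear protein-coding genes and below the 8.6% of all genes, noncoding ones included, that had as many counts. Of the 5, 4 were lower in replicate 2 and 1 was higher, directions that 4.29% and 4.31% of all those genes showed. Atp5k, subunit e at the dimer interface of ATP synthase, had 166 and 46 counts, a log2 ratio of -1.23 (95% counting interval -1.74 to -0.76). Ndufa1, a small membrane subunit on the X chromosome, had 71 and 20 counts and a ratio of -1.20 (-2.01 to -0.48). Ndufs5, an accessory subunit facing the intermembrane space, had 79 and 25 counts and -1.04 (-1.76 to -0.38). For these 3 the counting interval lay wholly below 0.

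The other 2 rested on few reads. The assembly factor Ndufaf6 had 25 and 6 counts and a log2 ratio of -1.39 (-3.02 to -0.13). Cox6a2 had 11 and 15 counts and 1.02 (-0.16 to 2.33), an interval that includes 0. With kallisto only Ndufa1 of the 5 stayed past 2-fold, at -1.10. Of the members with a mean of 100 or more counts, Atp5k alone was past 2-fold.

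**Figure D4:**
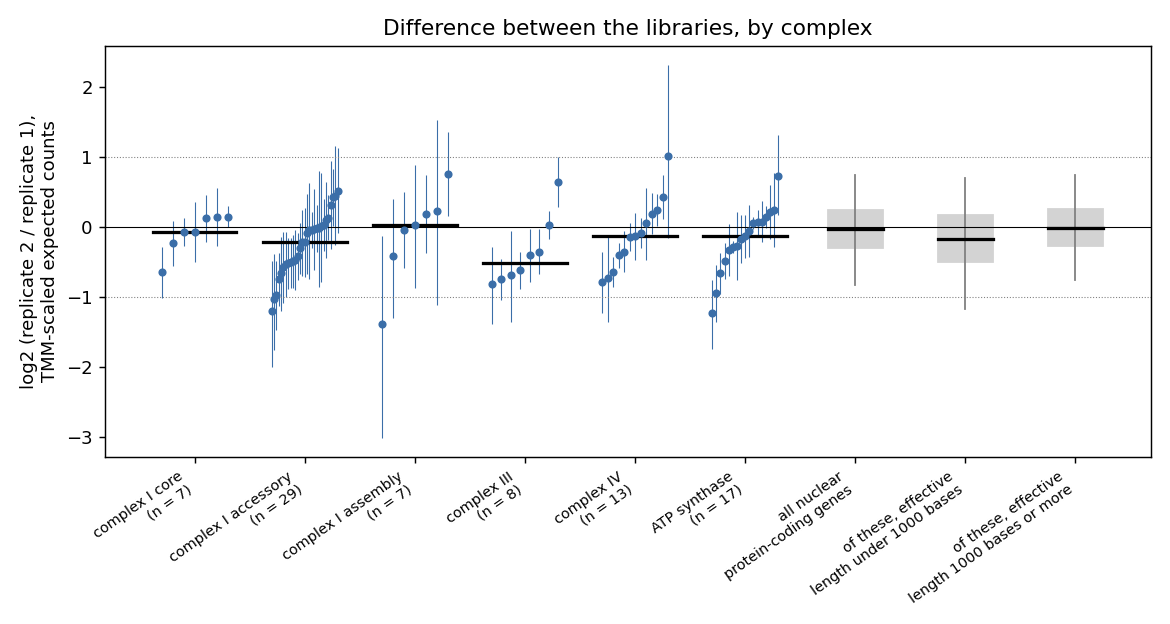
Log2 ratio of replicate 2 to replicate 1 for the 81 members with enough counts, by complex, with 95% counting intervals and medians as black bars; grey boxes give the quartiles, lines the 5th to 95th percentiles of nuclear protein-coding genes, in all and by effective length. Complex III has the lowest median at -0.51, and shorter genes as a whole sit lower than longer ones.

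Reads on transcripts that the annotation types as retained introns made up a sizeable part of the members' counts. Their share was 15.0% in replicate 1 and 20.4% in replicate 2 (mean 17.7% ± 3.76, SD, n = 2), against 11.6% and 14.2% over all nuclear protein-coding genes. In nuclear RNA such a count includes reads of messenger RNA precursors not yet spliced, which these tables cannot separate from finished transcripts that keep the intron. Over all members the 2 classes of transcript differed between libraries in opposite directions. Summed and TMM-scaled, retained-intron counts of the members were higher in replicate 2 by 0.28 on the log2 scale, and their protein-coding counts were lower, at -0.30. Over all nuclear protein-coding genes the same values were 0.18 and -0.17. The opposite directions were seen in the members of greater effective length. This length weights a gene's transcripts by their estimated levels. A long retained-intron model can thus itself place a gene in the longer class, so the split is not independent of these counts. Atp5l, with effective lengths of 963 and 1530 bases, has a coding transcript of 544 bases and a retained-intron model of 6310. Members of 1000 or more bases had 0.47 for retained-intron and -0.26 for protein-coding counts, while shorter members had -0.05 and -0.34. Nuclear protein-coding genes of 1 TPM or more showed the same split. They had 0.19 and -0.16 at 1000 or more bases, and -0.02 and -0.37 below that. Complex IV had -0.16 and -0.21, both classes being lower there.

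Of 50 members with an annotated retained-intron transcript, 49 had counts in both libraries. The share was higher in replicate 2 in 29 of them (59.2%), against 55.6% of 7435 nuclear protein-coding genes, lower in 19 and equal in 1. It exceeded 50% in both libraries in 6 (12.2%), against 8.22%. By set, core subunits of complex I stood at 14.5% and 24.1% of counts and accessory subunits at 15.7% and 22.6%. ATP synthase genes stood at 16.5% and 22.5%, and complex IV at 15.0% and 15.3%. Complex III, at 9.02% and 13.3%, and the assembly factors, at 6.36% and 7.14%, lay below the share over all genes.

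Among members of 10 TPM or more, Atp5l had the largest share, at 69.8% and 84.9% of counts. Nearly all of it was 1 transcript, Atp5l-204, a 6310-base model with 560 and 494 counts, while the protein-coding Atp5l-201 of 544 bases had 241 and 84.4. Per length the order was reversed, with 3.49 and 3.43 TPM for the long model against 27.2 and 11.0 TPM for the coding one. The share of counts thus says how much of the sequenced RNA was of that type, and not how many molecules. On the TPM scale, retained-intron transcripts held 12.5% and 15.6% of the members' level.

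Atp5j, coupling factor 6 of the peripheral stalk, had 65.4% and 72.7% of its counts on such transcripts, spread over several models. Its coding transcript Atp5j-201, the highest coding one in replicate 1 only, had 48.3 and 3.09 counts. The coding transcripts Atp5j-203 and Atp5j-202 had 17.8 and 18.8 counts, and 11.8 and 10.55. Cox6c, a small complex IV subunit, had 57.5% and 58.9%, all on Cox6c-202. Atp5k had 52.0% and 51.8%, so its lower count in replicate 2 was shared by both of its transcripts, Atp5k-203 (86.3 and 23.8 counts) and the coding Atp5k-201 (79.7 and 22.2). Ndufs1 had 30.2% and 51.0%. Its 2 main coding transcripts had 360 and 223 counts in replicate 1 and 147 and 150 in replicate 2, while the retained-intron models Ndufs1-202 and Ndufs1-206 had 87.9 and 99.5 counts in replicate 1 and 146 and 104 in replicate 2. Annotated genes held 23630328 expected counts in replicate 1 and 15687634 in replicate 2, so these raw transcript counts cannot be compared directly. After allowing for depth, the coding transcript with 360 and 147 counts was lower in replicate 2. The coding transcript with 223 and 150 counts was about level, and the 2 retained-intron models were higher. The TMM-scaled gene-level ratio of 0.15 for Ndufs1 thus joined 1 coding transcript that was lower with retained-intron models that were higher. Over the 84 members with counts, the highest transcript was protein-coding in 70, a retained intron in 10 and of another type in 4.

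**Figure D5:**
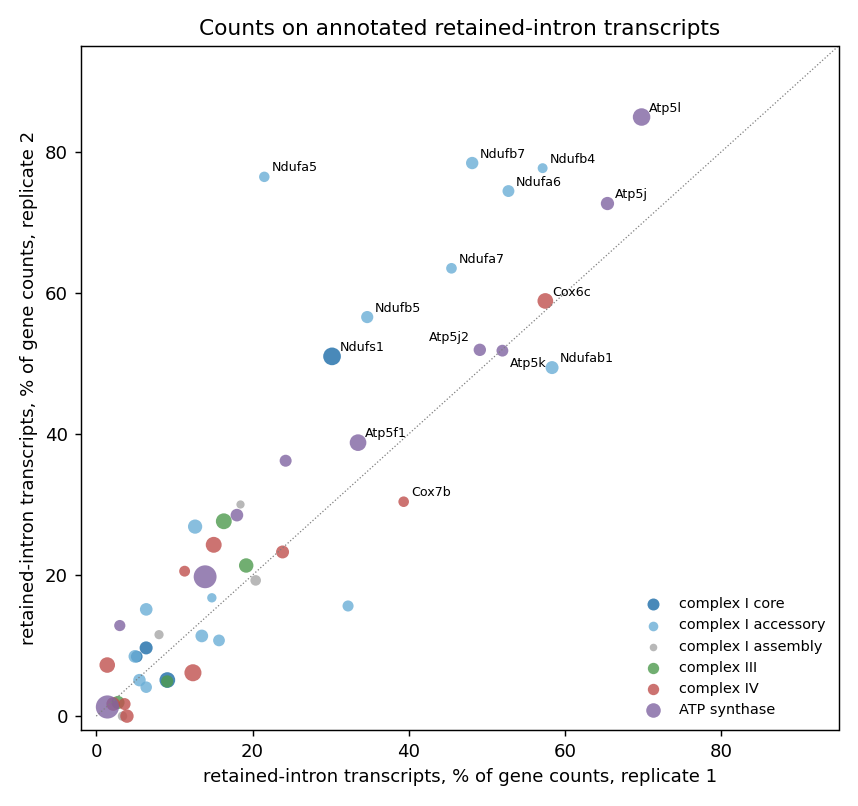
Percent of a gene's expected counts on retained-intron transcripts in replicate 1 (x) and replicate 2 (y) for members with such counts, coloured by complex, with point area growing with the mean count; the dotted line marks equal shares. Atp5l lies highest at 69.8% and 84.9%, and 29 members lie above the line.

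The quantifier moved some members more than the library did. Each tool's TPM was divided by its own median over the members, and among those of 10 TPM or more Atp5g2 differed most. RSEM gave it 197 and 67.4 counts, and kallisto 79.9 and 41.2. Its pseudogene Gm10175 had 0 and 44.6 counts by RSEM, and 184 and 143 by kallisto. With RSEM, the log2 ratio between replicates was -0.94 for Atp5g2 alone and -0.20 for gene and pseudogene together. With kallisto the same ratios were -0.84 and -0.41, so by either tool the gap was smaller once the copy was included.

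Ndufs1 and Atp5j were higher by kallisto relative to other members. Ndufs1 had a mean of 14.9 TPM by RSEM and 12.8 by kallisto, and Atp5j had 19.1 and 14.8, smaller drops than that of the median member. In counts, Ndufs1 had 841 and 609 by RSEM and 1403 and 1479 by kallisto, and Atp5j had 238 and 142 against 428 and 391. Kallisto assigned more counts in all, 32262178 and 27066870 against 23914018 and 15721469 by RSEM, so these counts cannot be compared directly. Both overlap an expressed gene on the opposite strand, Eef1b2 for Ndufs1 and Gabpa for Atp5j, and the part of the overlap was not tested. Atp5e and Cox5a were lower by kallisto relative to other members. In TPM not divided by the median, Atp5e had 5.45 and 5.68 by kallisto against 18.3 and 14.2 by RSEM. Cox5a had 14.5 and 11.8 TPM against 50.1 and 22.5. The median member was also lower by kallisto, at 3.90 TPM against 7.43, so part of these gaps was shared by the members. Similar copies were not common: 16 of 90 members had a transcript matching another gene over at least 50% of its length at 95% identity or more. In 2 of these, Atp5g2 and Ndufa12, the copies held over 10% of the member's counts in a library. Ndufa12 had 49.99 and 46.5 counts and its copy Gm15920 had 19.0 and 16.5, so both values are uncertain.

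The genes that work with the members were described from lists. Subunits encoded in mitochondrial DNA had higher levels, with medians of 2083 TPM in replicate 1 and 3187 in replicate 2 over 13 genes, and all 13 were above 100 TPM. The difference of medians from the members was 7.78 and 9.16 in log2(TPM + 0.1), a mean of 8.47 ± 0.98 (SD, n = 2). By the mean of both libraries, the highest were mt-Atp8 at 8685 and 24305 TPM and mt-Co1 at 11306 and 14274 TPM, which was above mt-Atp8 in replicate 1. The effective length of mt-Atp8 was only 27.6 and 20.3 bases. The lowest by the mean were mt-Nd3 at 614 and 584 TPM and mt-Co2 at 213 and 145 TPM. By kallisto mt-Atp8 lay below mt-Co1, at 1543 and 5177 TPM against 3212 and 7339. These RNAs are made in mitochondria and not in the nucleus, and they are in the tables of a nuclear fraction all the same. Between libraries, 9 of 13 were higher in replicate 2 and 4 lower, with a median log2 ratio of 0.78. Of these, 5 were over 2-fold higher and 1, mt-Co3, was over 2-fold lower at -1.11. These ratios rest on TMM-scaled RSEM counts, while the values that follow are TPM without that scaling. The 4 lower genes were also lower in RSEM TPM. There mt-Co3 had 1086 and 372.5 TPM, mt-Nd4l 1983 and 982, and mt-Atp6 794 and 493. By kallisto TPM mt-Co3 had 892 and 1310, mt-Nd4l 1152 and 2929, and mt-Atp6 1332 and 3584, while mt-Co2 was level at 415 and 414. On the TPM scale the direction of these genes thus depended on the quantifier. Their kallisto counts after TMM scaling were not compared.

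Complex II, whose 4 subunits are all nuclear-encoded, and cytochrome c genes all reached 1 TPM in both libraries (6 of 6). Sdha, the flavoprotein, was highest at 35.8 and 28.3 TPM, and Sdhb, the iron-sulfur subunit, followed at 19.3 and 12.5. Cycs, cytochrome c itself, had 10.6 and 6.98 TPM, and Cyc1, the cytochrome c1 of complex III, had 6.93 and 4.71. These levels lay in the range of the members. None of the 6 was over 2-fold apart between replicates.

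Of 39 other assembly factors, 27 had at least 1 TPM in each library and 4 at least 10 TPM. Cox17, a copper chaperone for complex IV, had 33.3 and 24.2 TPM, and Coa5 had 29.5 and 18.4. At the low end, Lyrm7, which brings the Rieske protein into complex III, had 0.31 and 0.11 TPM, and Pet117 had 0 counts. The list was not uniformly low, with medians of 3.23 and 2.10 TPM.

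Of 13 transcriptional regulators of mitochondrial genes, 10 reached 1 TPM in both libraries. Esrra, the oestrogen-related receptor alpha, was highest at 25.4 and 16.6 TPM. Tfb1m had 0.88 and 0.40 TPM. Ppargc1a, the coactivator known as a main driver of mitochondrial biogenesis, had 1 count in replicate 1 and 0 in replicate 2, while its relatives Pprc1 and Ppargc1b had 11.6 and 7.66 TPM and 1.99 and 1.06 TPM. No regulator on the list with enough counts was over 2-fold apart between replicates.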

How the data were processed

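Per the submitters' labels, RNA of a nuclear fraction was sequenced in 2 libraries of 1 group. The authors deposited RSEM gene and transcript tables with expected counts and TPM, and kallisto transcript tables with estimated counts and TPM, per the file headers. The genome was mm10 and the annotation GENCODE M21, per the deposited readme files; the sources used here name neither an aligner nor how strand was treated. Rows naming no gene held 1.19% and 0.215% of expected counts and were left out. Members and lists were chosen with earlier results of these data known.

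Gene levels are TPM as deposited. For ratios, expected counts were rounded to whole numbers and scaled by TMM (edgeR 4.0.16, R 4.3.3), with 0.5 counts added, for the 14052 genes whose 2 libraries averaged at least 10 counts. No test was run. Counting intervals (95%, Clopper-Pearson) and the limit of 3 counts for a 0 cover counting error only. DESeq2 1.42.0 size factors were an alternative. Retained-intron shares are sums over transcripts of that type in the RSEM table. Named genes were the 3 highest members per set, all under 1 TPM in both libraries, those over 2-fold apart, the 5 with the largest retained-intron share, the 5 on which the quantifiers differed most, the paralogue pairs, the 3 ring genes, and the 2 highest and 2 lowest of each list. A gene that this rule names is not reported here. Other genes are named as examples chosen after their values were seen. The scaling was tested on simulated data. Similar copies were sought with blastn between annotated transcripts (alignments of at least 100 bases), and promoter windows came from RefSeq.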

Additional observations from a re-analysis of the deposited data

Results flagged for a closer look

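Rows of the same families that the choice of members left out held signal above the 3 counts that a 0 allows. Ndufb1-ps, annotated as a long noncoding RNA of a shared promoter and not as protein-coding, had 294.55 expected counts in replicate 1 and 103 in replicate 2, or 19.8 and 8.29 TPM, in replicate 1 above every complex I member, of which Ndufa3 was the highest at 19.2 TPM. Ndufb4c, annotated as a processed pseudogene, had 27.99 and 18.05 counts.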

How the results depend on the processing

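No paired analysis was possible because the series has 1 group. Counts, levels and shares cannot change sign. The median log2 ratio and the ratios of the 5 members over 2-fold apart kept their sign under every alternative tried. So did the difference of the paralogue pairs and that between mitochondrially and nuclear-encoded subunits. Alternatives were not tried for the log2 ratios by complex, of retained-intron sums or of mitochondrial genes. The number of members reaching 10 TPM in both libraries was 24, and it was 11 with kallisto TPM and 73 when TPM was rescaled to nuclear protein-coding genes alone. It was 48 at a floor of 5 TPM and 7 at 20 TPM, and with 1 library left out it ran from 24 to 41, the higher value without replicate 2. The median member TPM of 7.43 was 3.90 with kallisto and 31.3 after rescaling, and ran from 5.48 to 9.38 with 1 library left out. The 5 members over 2-fold apart became 3 with kallisto counts, 21 with uncentred TPM, 1 with a mean of 100 or more counts and 8 with any count above 0. The median log2 ratio of -0.13 became -0.64 with uncentred TPM, where that of all nuclear protein-coding genes was -0.45; TPM rescaled to those genes gave -0.07, against 0.11. The retained-intron share of 17.7% was 23.3% with kallisto counts. The median log2 difference of the paralogue pairs, 6.83, was 3.86 with a pseudocount of 1, 9.82 with 0.01, 5.13 with kallisto and 4.73 with the posterior mean TPM. The difference between mitochondrially and nuclear-encoded subunits ran from 7.78 to 9.16 with 1 library left out. For these 7 results the remaining alternatives stayed within the spread between replicates, within 0.1 for the log2 ratio or, for counts, within 1.5 times. For the levels and ratios of single named genes, 56 alternative values stayed within that spread or past 2-fold and 81 did not, 34 of them with rescaled TPM, 26 with kallisto TPM and 14 with the posterior mean TPM. Causes of these shifts were not tested. Depth limited the members with few counts: the median member had 137 counts in replicate 1 and 72.5 in replicate 2.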
